A study of Mus musculus with 10 samples.

Results

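Glutathione S-transferases were followed here as 10 genes of 4 classes, Gsta2, Gsta3 and Gsta4 (alpha), Gstm1, Gstm2, Gstm3 and Gstm4 (mu), Gstp1 (pi), and Gstt1 and Gstt3 (theta). They were found by the gene symbol of the RefSeq accession that the array files give for each probe. The 10 genes had 13 of the 41174 probes on the array and made up 10 of the 26124 genes tested. Every one of the 13 probes stood well above background in the liver channel on all 10 arrays, so no member was lost to the filter on dim probes.

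The arrays measured liver RNA of male C57BL/6N mice, with no genetic change named in the labels. Ethanol was given by gavage at 5 g/kg to 1 group (4 arrays) and at 7 g/kg to another (3 arrays), and the control group received maltose by gavage at calories matched to 5 g/kg ethanol (3 arrays). No maltose group matched to 7 g/kg and no group without gavage was used here, so a difference at 7 g/kg from the controls also spans unequal calories. The age of the mice and the time from gavage to collection are not given in the sources used here. Each value is a log2 ratio of the liver sample (Cy5) over a commercial mixed mouse RNA (Cy3) hybridised to the same array, and 0 means equal signal in the 2 channels. The labels number the samples within a group without saying that each came from its own animal, so each p-value reflects only how arrays of a group vary, which may be technical.

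Glutathione S-transferases join the tripeptide glutathione to reactive, electron-poor compounds, which makes them more soluble and lets the cell export them. The liver is rich in the cytosolic alpha, mu, pi and theta enzymes, which differ in substrates, and several of their genes are known in the mouse to be induced by the oxidant-sensing factor NRF2 and by the xenobiotic receptors CAR and PXR. The products of lipid peroxidation, which include hydroxyalkenals, are among the natural substrates of the alpha and mu classes. Ethanol itself is not a substrate. It is oxidised to acetaldehyde, mainly by alcohol dehydrogenase and CYP2E1.

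Median signals in the liver channel were 121 to 219 intensity units across the arrays, where local backgrounds were 21 to 24, and the number of arrays limits the precision. Of the hepatocyte markers on the array, 10 of 10 stood well above background on all 10 arrays, and 9 of 10 had a mean log2 ratio above 0. Because whole liver was measured, fewer cells of a type and less RNA per cell cannot be told apart in any result below. The mean levels of 5 marker lists separated ethanol from control arrays at 1 dose or both. Mean log2 ratios of the 9 hepatocyte markers tested (1 passed as higher at 5 g/kg and 3 at 7 g/kg) were 0.418 to 0.648 at 5 g/kg and 0.400 to 0.683 at 7 g/kg, against 0.001 to 0.182 in controls. Those of 10 endothelial markers (3 higher at each dose) were −0.141 to 0.025 at 5 g/kg and −0.101 to 0.029 at 7 g/kg, against −0.462 to −0.290 in controls. Those of 9 stellate cell markers (2 and 1 higher) were 0.079 to 0.228 at 5 g/kg and 0.074 to 0.139 at 7 g/kg, against −0.330 to −0.074 in controls. Those of 8 neutrophil markers (2 higher at 7 g/kg) were 0.177 to 0.254 at 7 g/kg, against −0.264 to −0.122 in controls, while the 5 g/kg arrays ran from −0.274 to 0.219. Those of 8 pericentral hepatocyte markers (1 higher and 3 lower at 7 g/kg) were −0.399 to −0.140 at 7 g/kg, against −0.137 to 0.076 in controls, while the 5 g/kg arrays ran from −0.305 to −0.060 (1 lower). Mean levels of periportal, cholangiocyte and Kupffer cell markers overlapped between the groups. Of the 2 higher neutrophil markers, S100a8 stood well above background on 0 of 3 control arrays but on every 7 g/kg array. The neutrophil means include its dim control values, and means without S100a8 were not taken. For the 9 hepatocyte markers, the median log2 change was 0.427 for the lower dose but only 0.079 for the higher dose. At the higher dose Fgb rose by 2.64, Tat by 0.71 and Ttr by 0.69. The hepatocyte means include Fgb, and means without it were not taken. The part of these cell markers in the results on glutathione S-transferases was not tested.

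Against maltose, 4 of the 10 members passed the test at 5 g/kg, all of them higher (Gstm1, Gstm2, Gstm3 and Gstt3), where 3.77% of all genes tested passed (2.21% higher and 1.56% lower). At 7 g/kg 5 of 10 passed, again all higher (the same 4 genes and Gstm4), where 9% of all genes passed (4.66% higher and 4.33% lower). Between the doses, 3 of 10 were higher at 7 than at 5 g/kg (Gstm1, Gstm2 and Gstm3), where 1.57% of all genes passed (0.662% higher and 0.911% lower). No member passed as lower in any of the 3 comparisons. By array values alone, 5 of 10 members had every 5 g/kg array above every control, where 16.9% of all genes had groups that did not overlap (9.29% higher and 7.64% lower). At 7 g/kg this held for 7 of 10 members, beside 25.4% of all genes (13.1% higher and 12.3% lower). Between the doses 3 of 10 had all 7 g/kg arrays above all 5 g/kg arrays and 1 had them below, beside 11% of all genes (4.87% higher and 6.14% lower). The 1 below was Gstt3, also counted above controls at both doses, and it had values on only 2 arrays per dose. With fewer values, groups fail to overlap more easily. The test was limma's moderated test over all genes, two-sided, with a Benjamini-Hochberg adjusted p under 0.05 as the threshold. The median log2 change of the members was 0.302 at 5 g/kg and 0.678 at 7 g/kg, beside 0.003 and 0.012 over all genes, and from 5 to 7 g/kg it was 0.205, beside 0.005.

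**Figure D1:**
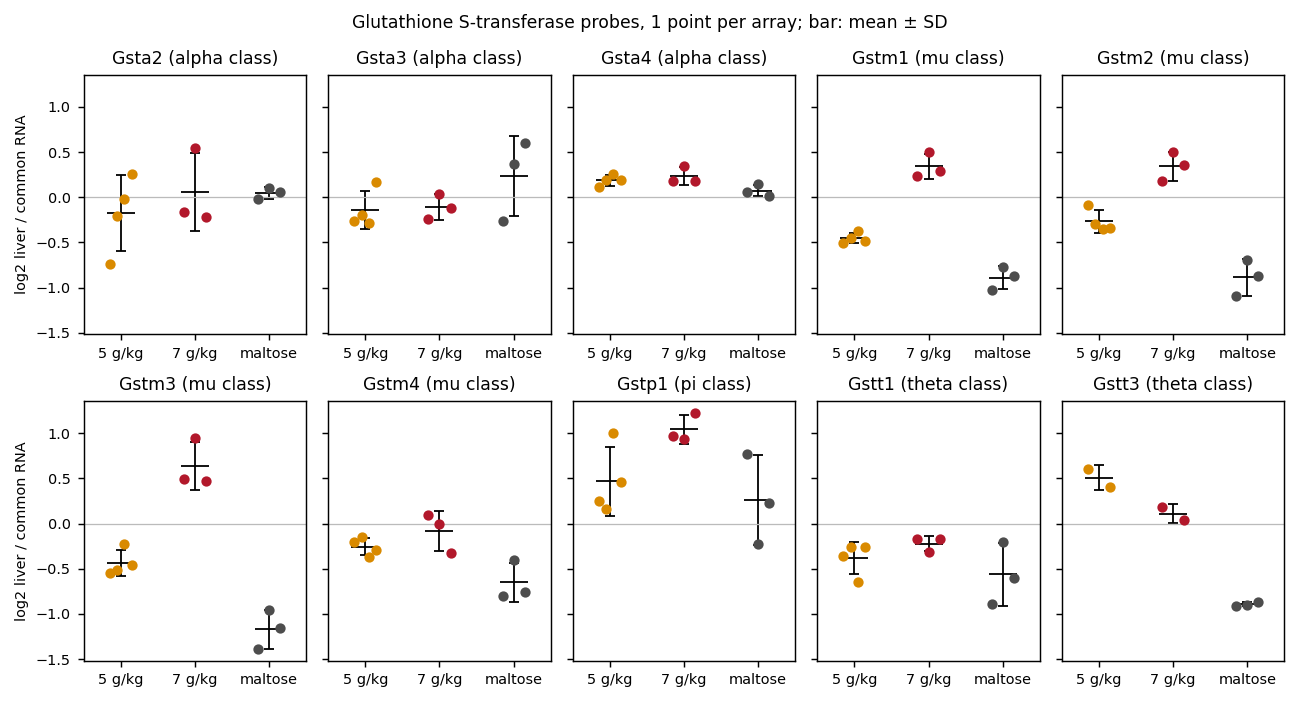
Log2 ratio of liver over common RNA for each of the 10 members (vertical axis), 1 point per array, at 5 g/kg ethanol, at 7 g/kg ethanol and in maltose controls, with the mean and SD of each group drawn as a horizontal line with whiskers. In Gstm1, Gstm2 and Gstm3 the 3 groups form separate steps, in Gstt3 both ethanol groups lie above controls at −0.92 to −0.87, and in Gsta2 and Gsta3 the groups overlap.

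The mu class held the clearest pattern: Gstm3, Gstm1 and Gstm2 were highest at 7 g/kg, intermediate at 5 g/kg and lowest in controls, and each of these steps passed the test. The mu enzymes conjugate epoxides and aromatic electrophiles, and Gstm1 and Gstm3 are widely used as NRF2-responsive genes in mouse liver. Gstm3 had log2 ratios of −0.54, −0.52, −0.22 and −0.46 at 5 g/kg and of 0.49, 0.94 and 0.47 at 7 g/kg, against −1.39, −0.96 and −1.16 in controls. No array of one group entered the range of another. Its log2 change was 0.73 at 5 g/kg (SE 0.140, 1.66-fold, adjusted p = 0.00889) and 1.80 at 7 g/kg (SE 0.149, 3.49-fold, adjusted p = 4.96e-06). By its log2 change at 7 g/kg Gstm3 ranked 72 of 26124 genes. From 5 to 7 g/kg Gstm3 rose by a further 1.07 on the log2 scale (SE 0.140, adjusted p = 0.0012).

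Gstm1 ran close to Gstm3. Its log2 ratios were −0.51, −0.45, −0.38 and −0.48 at 5 g/kg and were 0.24, 0.50 and 0.29 at 7 g/kg, against −1.02, −0.77 and −0.87 in controls, and again the 3 groups did not overlap. The rise was 1.35-fold at 5 g/kg (log2 0.43, SE 0.102, adjusted p = 0.0283) and 2.35-fold at 7 g/kg (log2 1.23, SE 0.109, adjusted p = 1.07e-05), and 1.74-fold between the doses (log2 0.80, adjusted p = 0.00113). A second, dimmer Gstm1 probe gave log2 changes of 0.45, 1.38 and 0.93 in the same order of comparisons, all past the threshold when each probe was its own row of the fit. The call at 5 g/kg was lost in 11 of the alternatives tried (adjusted p = 0.0543 to 0.966). Among them were slide as a block (adjusted p = 0.0603), the fits without 5 g/kg array 1, 2 or 3 or control array 1 or 3 (up to 0.154), and the liver channel alone, which gave the highest.

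Gstm2 changed by the same estimate as Gstm1 at 7 g/kg, 2.35-fold, and by 1.54-fold at 5 g/kg. Its log2 ratios were −0.08, −0.30, −0.35 and −0.34 at 5 g/kg and were 0.18, 0.50 and 0.36 at 7 g/kg, against −1.10, −0.69 and −0.87 in controls, with no overlap between the groups. The log2 change was 0.62 at 5 g/kg (SE 0.121, adjusted p = 0.0101), 1.23 at 7 g/kg (SE 0.129, adjusted p = 4.47e-05) and 0.61 between the doses (SE 0.121, adjusted p = 0.0193). The step between the doses kept its direction but lost its call in 9 of the alternatives tried (adjusted p = 0.0535 to 0.826). Among them were slide as a block (adjusted p = 0.0646), the fits without 5 g/kg array 2 or 4 or 7 g/kg array 2 or 3 (up to 0.0957), the scanner's processed signals (0.110), the deposited series table (0.106) and the liver channel alone, which gave the highest.

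Gstm4 had the smallest estimates of the mu members. It had log2 ratios of −0.21, −0.15, −0.37 and −0.29 at 5 g/kg and of 0.09, 0.00 and −0.33 at 7 g/kg, against −0.80, −0.40 and −0.75 in controls. All ethanol arrays lay above all controls, while the 2 ethanol groups overlapped. Its log2 change was 0.57 at 7 g/kg (SE 0.136, adjusted p = 0.0153), and 0.40 at 5 g/kg, which did not pass (adjusted p = 0.116). The call at 7 g/kg was lost in 7 of the alternatives tried (adjusted p = 0.0580 to 0.432), which were the fits without 7 g/kg array 1 or 2 or control array 1 or 3 (up to 0.0793), the scanner's processed signals (0.0664), the deposited series table (0.0647) and the liver channel alone (0.432). The difference between the doses was 0.18, with a 95% interval of −0.10 to 0.45. Leaving out control array 1, which had the lowest ratio of every mu member, also took the calls at 5 g/kg from Gstm2 (log2 0.52, adjusted p = 0.0661) and Gstm3 (log2 0.62, adjusted p = 0.0582), as it did from Gstm1. Without that array no mu member passed at 5 g/kg, and the members that passed were Gstt3, as higher, and Gsta3, as lower.

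**Figure D2:**
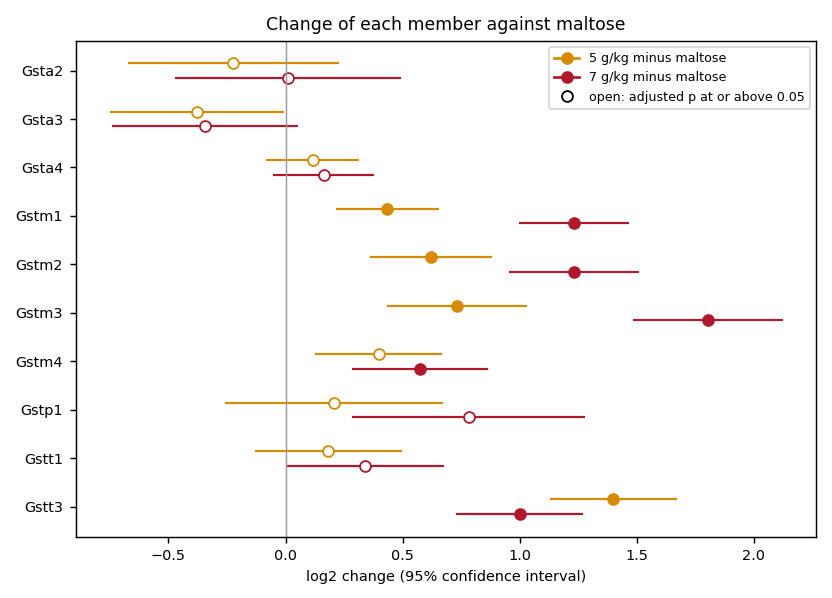
Log2 change of each member against maltose controls (horizontal axis) with its 95% confidence interval, at 5 g/kg and at 7 g/kg ethanol; open points did not pass an adjusted p of 0.05. The intervals of the 4 mu members lie above 0 at both doses, the Gstt3 estimate is larger at 5 g/kg (1.40) than at 7 g/kg (1.00), and 5 of the 6 alpha intervals include 0.

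The differences within slides ran the same way for these genes. Each of the 4 slides held arrays of at least 2 groups, and the ethanol array exceeded the control array of its slide in all comparisons available for the mu members. Within slides the log2 difference for Gstm3 was 0.44 to 0.84 at 5 g/kg (3 slides) and 1.45 to 1.63 at 7 g/kg (2 slides). For Gstm1 it was 0.32 to 0.51 and 1.01 to 1.16, for Gstm2 0.39 to 1.02 and 0.87 to 1.23, and for Gstm4 0.25 to 0.59 and 0.43 to 0.49. Between the doses, Gstm4 differed by −0.04 to 0.37 over 3 slides, so its order was not the same on every slide.

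The promoters of the 3 mu members that rose at each step are shown because these genes moved together. Each line holds the 250 bases before a RefSeq start in GRCm38.p6, 5′ to 3′ on the gene's minus strand. Capitals mark matches to TGANNNNGC or to GCGTG, the core recognised by the aryl hydrocarbon receptor. TGANNNNGC is a loose form of the antioxidant response element core that NRF2 binds, which usually has C or G after TGA. Both Gstm3 matches have A there. Both motifs were searched on both strands. Gstm1 has 2 RefSeq starts, and the one further downstream is shown. The regions are chr3:107969175-107969424 for Gstm3, chr3:107986421-107986670 for Gstm2 and chr3:108017819-108018068 for Gstm1.
Gstm3: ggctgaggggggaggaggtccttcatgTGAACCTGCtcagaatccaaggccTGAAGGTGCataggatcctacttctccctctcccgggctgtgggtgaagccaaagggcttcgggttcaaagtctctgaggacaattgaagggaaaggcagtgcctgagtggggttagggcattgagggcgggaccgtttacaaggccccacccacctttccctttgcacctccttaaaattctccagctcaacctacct
Gstm2: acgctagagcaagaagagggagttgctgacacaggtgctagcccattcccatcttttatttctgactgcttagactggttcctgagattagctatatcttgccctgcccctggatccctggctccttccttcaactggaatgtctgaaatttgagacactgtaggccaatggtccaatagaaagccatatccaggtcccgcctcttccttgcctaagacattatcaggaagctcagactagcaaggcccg
Gstm1: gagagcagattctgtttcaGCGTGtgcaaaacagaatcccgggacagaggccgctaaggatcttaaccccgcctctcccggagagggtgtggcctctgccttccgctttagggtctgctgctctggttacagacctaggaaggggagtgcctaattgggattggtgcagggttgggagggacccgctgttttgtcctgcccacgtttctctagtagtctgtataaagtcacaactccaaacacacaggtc
The Gstm3 window held TGANNNNGC at 223 and at 199 bases before the start, the Gstm1 window held GCGTG at 231 bases before it, and these letters were not found in the Gstm2 window. Of all 32851 promoter windows of this length, 35.2% held TGANNNNGC and 28.2% held GCGTG. The 9 members with a window had 12 windows, of which 8 held the first motif and 4 the second. Counted by gene, 6 of the 9 held the first motif and 3 the second. A match of letters is a description of the sequence and not a bound site.

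The theta class held the member with the largest change at 5 g/kg. Gstt3 had log2 ratios of 0.61 and 0.41 at 5 g/kg and of 0.18 and 0.03 at 7 g/kg, against −0.92, −0.90 and −0.87 in controls. The other 3 ethanol arrays have no value because the scanner software marked the spot as an outlier. All measured ethanol arrays lay above the controls, which varied little among themselves. The log2 change was 1.40 at 5 g/kg (SE 0.124, 2.64-fold, adjusted p = 0.000139, n = 2 and 3 arrays in limma's fit) and 1.00 at 7 g/kg (SE 0.124, 2.00-fold, adjusted p = 0.00044, n = 2 and 3 in the same fit). The outlier-marked values were 0.70 and 0.39 at 5 g/kg and 0.13 at 7 g/kg, within or near the range of their groups, and with them the changes were 1.43 and 1.02. With values missing, a single slide gave each difference within a slide, 1.503 at 5 g/kg and 0.901 at 7 g/kg.

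Among the members that passed, Gstt3 alone had its higher mean at the lower dose. The difference of 7 minus 5 g/kg was −0.40 on the log2 scale (95% interval −0.70 to −0.10), the arrays of the 2 doses did not overlap, and the test did not pass (adjusted p = 0.262, and 0.072 with the outlier-marked spots kept). Its promoter is shown for contrast with the mu genes, over chr10:75781415-75781664 of GRCm38.p6 on the minus strand, with a match to TGANNNNGC on the opposite strand in capitals. Read on that opposite strand, the match has T after TGA, where the NRF2 element usually has C or G.
Gstt3: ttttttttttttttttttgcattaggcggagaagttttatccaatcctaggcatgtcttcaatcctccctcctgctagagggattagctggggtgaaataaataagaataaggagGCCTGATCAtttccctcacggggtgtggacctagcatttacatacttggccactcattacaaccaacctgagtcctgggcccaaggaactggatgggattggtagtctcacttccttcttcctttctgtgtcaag
Gstt1, the theta enzyme known for acting on small halogenated compounds, did not pass. It had log2 ratios of −0.36, −0.26, −0.64 and −0.26 at 5 g/kg and of −0.17, −0.32 and −0.17 at 7 g/kg, against −0.89, −0.20 and −0.60 in controls, and control array 2 lay within or above the ethanol range. Its log2 change was 0.18 at 5 g/kg (95% interval −0.13 to 0.50, adjusted p = 0.638) and 0.34 at 7 g/kg (0.00377 to 0.677, adjusted p = 0.242). Without control array 2 the change at 7 g/kg was 0.52 and passed (adjusted p = 0.0476).

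Gstp1, the pi enzyme that is abundant in male mouse liver, had its 7 g/kg arrays above all controls yet missed the threshold. Its log2 ratios were 0.24, 0.16, 1.01 and 0.46 at 5 g/kg and were 0.97, 0.93 and 1.23 at 7 g/kg, against 0.77, −0.22 and 0.23 in controls. The controls spread over about 1 log2 unit, and 5 g/kg array 3 lay among the 7 g/kg arrays. The log2 change was 0.78 at 7 g/kg (SE 0.233, 1.72-fold, adjusted p = 0.0508) and 0.21 at 5 g/kg (SE 0.218, adjusted p = 0.741). The second Gstp1 probe gave 0.66 at 7 g/kg and passed in the fit of single probes (adjusted p = 0.019), where the first probe passed too (adjusted p = 0.047). The call at 7 g/kg was gained in 5 of the alternatives tried, among them the mean of both probes (adjusted p = 0.0318) and the fits without control array 1 (log2 1.04, adjusted p = 0.0134) or 5 g/kg array 3 (adjusted p = 0.0233), while the liver channel alone gave 0.14.

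No alpha member passed. Gsta4 is the alpha enzyme known for conjugating 4-hydroxynonenal, a product of lipid peroxidation. Its probe is printed 10 times on each array, and its SE was the smallest among the members. It had log2 ratios of 0.11, 0.19, 0.26 and 0.19 at 5 g/kg and of 0.18, 0.35 and 0.18 at 7 g/kg, against 0.06, 0.15 and 0.02 in controls, with an SD between spots of 0.031 to 0.175 per array. Its 7 g/kg arrays lay above the controls, by little: the log2 change was 0.16 at 7 g/kg (95% interval −0.05 to 0.38, adjusted p = 0.424) and 0.11 at 5 g/kg (−0.09 to 0.32, adjusted p = 0.642).

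Gsta3, the alpha enzyme that protects the mouse from aflatoxin, was the member with the most negative estimates. Its log2 ratios were −0.26, −0.19, −0.28 and 0.16 at 5 g/kg and were −0.24, 0.04 and −0.12 at 7 g/kg, against −0.26, 0.37 and 0.60 in controls. Control array 1 lay with the ethanol arrays, and the other 2 controls lay above all of them. The log2 change was −0.38 at 5 g/kg (SE 0.174, adjusted p = 0.311) and −0.34 at 7 g/kg (SE 0.186, adjusted p = 0.341), and a second probe gave −0.19 and −0.46. Without control array 1 these changes were −0.63 (adjusted p = 0.0472) and −0.59 (adjusted p = 0.0386) and passed. Gsta2, an inducible alpha enzyme, gave liver signals of 130 to 382 intensity units after background correction with an added offset of 50. These are not on the scale of the uncorrected median signals given above. Gsta2 had ratios of −0.74, −0.21, −0.02 and 0.26 at 5 g/kg and of −0.16, 0.55 and −0.22 at 7 g/kg, against −0.02, 0.10 and 0.06 in controls. Its ethanol arrays spread more widely than its controls, and its log2 changes of −0.22 (adjusted p = 0.702) and 0.01 (adjusted p = 0.991) had no settled direction.

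**Figure D3:**
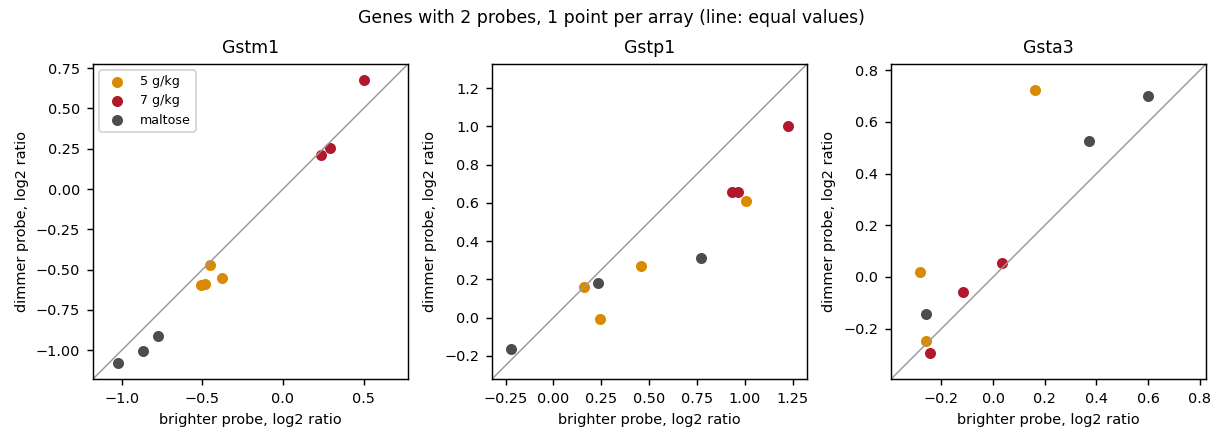
Log2 ratios of the 2 probes of Gstm1, Gstp1 and Gsta3, the brighter probe on the horizontal and the dimmer on the vertical axis, 1 point per array with a value for both, coloured by group (5 g/kg, 7 g/kg, maltose); the line marks equal values. Both Gstm1 probes place the 3 groups in the same order, and both Gstp1 probes place 5 g/kg array 3 apart from the other 5 g/kg arrays, at 1.01 and 0.61.

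Of 14 other cytosolic and mitochondrial glutathione transferase genes listed, 12 were tested, and they went both ways. At 5 g/kg 1 of 12 passed, as lower, where 1.56% of all genes passed as lower. At 7 g/kg 4 passed as higher and 3 as lower, beside 4.66% and 4.33% of all genes. Median log2 changes were −0.07 at 5 g/kg and −0.06 at 7 g/kg, beside 0.003 and 0.012 over all genes. The higher ones were the mu genes Gstm6 (log2 1.32, adjusted p = 7.68e-05), Gstm5 (0.58, adjusted p = 0.0217) and Gstm7 (0.55, adjusted p = 0.0101) and the pi gene Gstp3 (0.93, adjusted p = 0.000129). At 5 g/kg these 4 had log2 changes of 0.10, 0.23, 0.08 and 0.27 and none passed. Gstm6 had log2 ratios of −0.61, −0.38, −0.66 and −0.56 at 5 g/kg and of 0.76, 0.65 and 0.58 at 7 g/kg, against −0.85, −0.26 and −0.84 in controls. Its 5 g/kg arrays lay within the range of the controls, and the step between the doses passed (log2 1.22, adjusted p = 0.000391). Mouse mu genes are close in sequence, and the sources used here do not give the probe sequences, so signal shared between mu probes was not tested.

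The lower ones included a theta gene, opposite to Gstt3. Gstt2 had log2 ratios of 0.14, 0.20, −0.13 and −0.13 at 5 g/kg and of −1.002, −0.999 and −0.689 at 7 g/kg, against 0.95, 0.79 and 0.61 in controls. The 3 groups did not overlap. Gstt2 fell 1.70-fold at 5 g/kg (log2 −0.76, SE 0.126, adjusted p = 0.00357) and 3.20-fold at 7 g/kg (log2 −1.68, SE 0.135, adjusted p = 3.85e-06). Gsto1, an omega enzyme that reduces dehydroascorbate, fell at 7 g/kg (log2 −0.73, adjusted p = 0.000396), and so did Gstz1, which isomerises maleylacetoacetate in tyrosine breakdown (log2 −0.39, adjusted p = 0.0402). The calls of Gstz1 and Gstm5 at 7 g/kg were lost in 11 and 7 of the alternatives tried. Gsto2, Gsta1, Gstcd, Hpgds and Gstt4 did not pass at either dose, with log2 changes of −0.33 to 0.05. Of 6 membrane-bound glutathione transferase and related genes (the MAPEG family), none passed in limma's test at either dose. In limma's fit an unadjusted p under 0.05 was reached by 0 of 6 at 5 g/kg and by 2 of 6 at 7 g/kg. These were Mgst3 (log2 −0.38) and Ltc4s (0.27), with values of 0.0332 and 0.0392. The share of all genes under that unadjusted threshold is not given here.

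**Figure D4:**
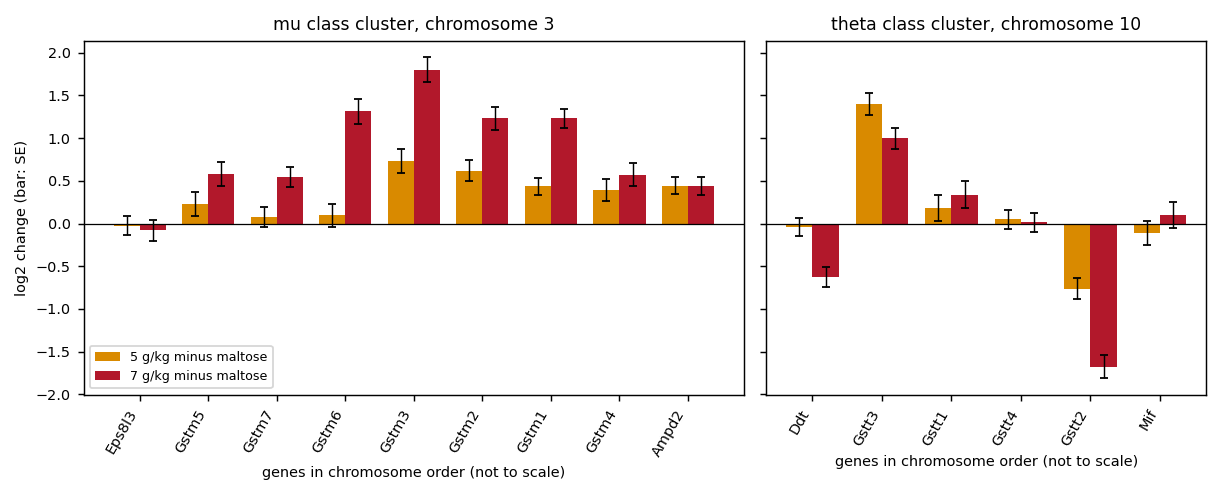
Log2 change against maltose controls at 5 g/kg and at 7 g/kg ethanol (vertical axis, bars start at 0, whiskers are SE) for the genes of the mu cluster on chromosome 3 and of the theta cluster on chromosome 10, in chromosome order with the nearest tested gene on either side. All 7 mu genes are above 0 at 7 g/kg with Gstm3 the tallest at 1.80, while the theta cluster runs from Gstt3 at 1.00 to Gstt2 at −1.68.

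In the RefSeq annotation of GRCm38.p6 the mu genes lie together on chromosome 3 in the order Gstm5, Gstm7, Gstm6, Gstm3, Gstm2, Gstm1 and Gstm4. All 7 passed as higher at 7 g/kg, and the estimates were larger in the middle of the cluster (1.32, 1.80, 1.23 and 1.23 for Gstm6, Gstm3, Gstm2 and Gstm1) than at its ends (0.58, 0.55 and 0.57 for Gstm5, Gstm7 and Gstm4). On either side, Eps8l3 did not pass (log2 −0.02 at 5 g/kg and −0.08 at 7 g/kg) and Ampd2, an AMP deaminase gene, rose by 0.44 at both doses (adjusted p = 0.024 and 0.0185). The theta genes lie on chromosome 10 in the order Gstt3, Gstt1, Gstt4 and Gstt2. Their 7 g/kg changes were 1.00, 0.34, 0.01 and −1.68, so Gstt3 and Gstt2, at opposite ends of the same cluster, moved in opposite directions. Beside them Ddt fell at 7 g/kg (log2 −0.63, adjusted p = 0.00318) and Mif did not pass (0.10). Gstp1 lies in a cluster on chromosome 19 with Gstp3 and with Gstp2, which was not among the genes tested. Gstp3 rose at 7 g/kg, and of the genes on either side of the cluster Cabp2 rose too (log2 0.80, adjusted p = 0.00539) and Ndufv1 had −0.24. Signal shared between pi genes was not tested. The neighbours outside the family were chosen after the members' values were seen.

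The genes whose log2 ratios ran most like each member over the arrays were named by the highest Pearson r, as a description over 10 arrays that share 3 groups. Gstm1 and Gstm3 were each other's most alike gene out of all genes with a symbol (r = 0.994), and the deviations from their group means ran together as well (r = 0.960). For Gstm2 it was Selenbp2, a selenium-binding protein gene high in male liver (r = 0.969). Selenbp2 rose by 0.82 at 5 g/kg (adjusted p = 0.00382) and by 1.87 at 7 g/kg (adjusted p = 3.07e-06). For Gstm4 it was Tpst2 (r = 0.983), which encodes a protein tyrosine sulfotransferase, and for Gstt3 Csrnp1 (r = 0.985, 7 arrays). For the members that did not pass at either dose, the most alike genes were Fbxw26 for Gstp1 (r = 0.931), Dab2ip for Gstt1 (0.928), Golph3 for Gsta4 (0.956), Rdh5 for Gsta3 (0.936) and Shox2 for Gsta2 (0.97). Within groups Gstp1 ran against Gstt1 (r = −0.867) and Gstm4 (r = −0.788), that is, arrays high in one were low in the other.

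Among genes of glutathione supply and use, those that passed went both ways. Of 14 tested genes of glutathione synthesis and breakdown, 1 was higher and 2 were lower at 5 g/kg, and 2 were higher and 4 lower at 7 g/kg, with median log2 changes of −0.08 and −0.07. Slc3a2, a subunit of amino acid exchangers that include the cystine carrier, rose at 7 g/kg (log2 0.63, adjusted p = 0.00159), and Ggt6 rose at both doses (0.53 and 0.49). Chac2, which degrades glutathione, fell at both doses (−0.37 and −0.73), and Oplah, the 5-oxoprolinase that returns glutamate from the cycle, did too (−0.46 and −0.67). Of 14 peroxidase, reductase and glyoxalase genes, 1 was higher at 5 g/kg, and 1 was higher and 3 were lower at 7 g/kg. For comparison with both lists, 2.21% of all genes passed as higher and 1.56% as lower for the lower dose. For the higher dose these shares were 4.66% and 4.33%. The secreted peroxidase gene Gpx3 rose by 0.81 and 0.94, while Gpx1 (−0.52), Gpx4 (−0.39) and the glyoxalase gene Hagh (−0.78) fell at 7 g/kg.

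Downstream of conjugation, 2 of 9 genes of conjugate export and mercapturate formation fell at 5 g/kg and 1 at 7 g/kg. These were the N-acetyltransferase gene Nat8 at both doses (log2 −0.60 and −0.58, n = 2 and 3 ethanol arrays and 2 controls) and its relative Nat8f1 at 5 g/kg (−1.19, adjusted p = 0.000173). The exporter genes Abcc3 and Abcc4 did not pass against controls. Of all genes, 1.56% passed as lower at 5 g/kg and 4.33% at 7 g/kg.

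Of 16 tested NRF2 targets outside glutathione metabolism, none passed at 5 g/kg in limma's test, beside 3.77% of all genes, and at 7 g/kg 4 passed as higher and 2 as lower, beside 4.66% and 4.33% of all genes. At 5 g/kg Hmox1 (log2 0.36) and Nqo1 (−0.46) had unadjusted p-values of 0.0222 and 0.00807. At 7 g/kg the heme-degrading enzyme gene Hmox1 rose by 1.01 (adjusted p = 0.000694), and the pentose phosphate genes Pgd and Tkt rose by 2.13 (n = 2 and 3 arrays) and 0.98. Nqo1, the quinone reductase often used to report NRF2 activity, fell by 0.67 on the log2 scale (adjusted p = 0.0163). Gstm1 and Gstm3 rose at the same dose. The Nqo1 probe stood well above background on only 2 of the 3 arrays at 7 g/kg. It did so on all control and 5 g/kg arrays. The part of NRF2 in the changes of the members was not tested. Of 16 regulators of glutathione S-transferase transcription, 1 was lower at 5 g/kg, and 1 was higher and 4 were lower at 7 g/kg. Mafg, a small MAF partner of NRF2, fell at both doses (−0.63 and −0.97), and at 7 g/kg Nr1i3, which encodes CAR, fell by 1.41 (adjusted p = 0.000118), Keap1, the NRF2 inhibitor, by 0.48 and Rxra by 0.48 (2 control arrays).

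Of 15 tested CAR and PXR targets outside the family, 7 were higher at 5 g/kg, and 6 were higher and 4 lower at 7 g/kg. Of all genes, 2.21% passed as higher at 5 g/kg, and 4.66% as higher and 4.33% as lower at 7 g/kg. Cyp2b10, the usual marker gene of CAR activity, rose by 4.54 at 5 g/kg (n = 2 arrays) and by 3.58 at 7 g/kg on the log2 scale, and Cyp2b9 rose by 2.36 (n = 2) and 1.72. Their estimates were lower at 7 than at 5 g/kg. The differences of 7 minus 5 g/kg, −0.96 and −0.64, did not pass (adjusted p = 0.165 and 0.254). Of the 15 genes, 3 passed as lower at 7 than at 5 g/kg and 0 as higher, beside 0.911% and 0.662% of all genes. The median log2 change of the 15 between the doses was −0.636, beside 0.005 over all genes. The part of CAR and PXR in the changes of the members was not tested.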

How the data were processed

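Liver RNA of 10 samples was labelled with Cy5 and hybridised with Cy3-labelled commercial mixed mouse RNA to 2-colour Agilent arrays, all in 1 dye orientation. The tissue entry of the common RNA reads liver, which its source name does not. Spot intensities, with their local backgrounds and flags, were deposited as written by Agilent Feature Extraction 11.5.1.1, per the file headers. The log10 ratio and the processed signals in the same deposited files are the scanner software's background-subtracted, dye-normalized values, per the file headers. A deposited series table of 40599 probes holds log2 ratios of liver over common RNA that the authors made from the arrays; this scale and direction came from setting it against the log10 ratios (slopes 3.32 to 3.34, r 0.94 to 1.00). Its column medians were −0.0416, −0.00959, −0.0652 and 0.0450 at 5 g/kg, 0.0138, −0.0723 and 0.0759 at 7 g/kg, and 0.0623, 0.0249 and 0.0137 in controls, and any centring step is unknown.

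Median intensities were corrected by normexp (offset 50) and normalized by loess within each array in limma 3.58.1 (R 4.3.3). Control spots and spots marked as outliers were left out, and spots of a probe were averaged. Probes well above background in the liver channel on at least 3 arrays, with at least 2 values per group, were kept, and the brightest probe stood for its gene, which left 26124 genes, 15112 with a symbol. One fit of 3 group means on all 10 arrays with empirical Bayes gave each difference, and p-values were adjusted by Benjamini-Hochberg over all genes with 0.05 as the threshold. The procedure was tested on simulated data. Figures were drawn with matplotlib 3.10.9.

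Genes named were all members, all tested genes of the list of other glutathione transferases, the 4 with the smallest p of each further list and the most alike gene of each member. The members, the lists and the tests were chosen with earlier results of these data known. Same-numbered arrays did not deviate together (9 pairs, r −0.207 to 0.203, 2 of them over 0.1), so the replicate numbers were not taken as pairs. Alternatives covered background correction, normalization, filters, probe choice, slide, replicate number and leaving out each array.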

Additional observations from a re-analysis of the deposited data

Results flagged for a closer look

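Of 72 genes searched, 3 had 1 array of the 5 g/kg group far from the other 3, by the gap to its nearest neighbour relative to the range of the group, which chance gives in about 1 in 20 groups. None of the 9 members with 4 values was among them. Oplah, the 5-oxoprolinase gene, had a log2 ratio of −0.501 on array 4, where the others lay between −0.169 and −0.106. Hsd3b5, a steroid dehydrogenase gene high in male liver, had −2.03 on array 3, where the others lay between −1.47 and −1.36. The complement gene C6 had −0.222 on array 4, where the others lay between −0.0832 and −0.0638.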

How the results depend on the processing

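Gstm2 and Gstm3 at 7 g/kg passed in all 13 alternatives and all 10 fits that left out 1 array, and Gstm1 at 7 g/kg passed in all of these except the liver channel alone. The scanner's processed signals gave 513 genes past the threshold at 5 g/kg and 116 between the doses, with 2 members at 5 g/kg, and the deposited series table gave 577 and 138 genes. The liver channel alone, quantile normalized, gave 124 genes at 5 g/kg, 521 at 7 g/kg and 38 between the doses, with 0, 2 and 0 members. The cause was not tested. Leaving out 1 array gave 468 to 1051 genes at 5 g/kg, 1497 to 2341 at 7 g/kg and 220 to 432 between the doses, with the lowest count without control array 1 at both doses and without 7 g/kg array 1 between them. The members passing were then 2 to 4, 3 to 6 and 2 to 3. The share of calls that were higher was 58.7%, 51.8% and 42.1% in the 3 comparisons, with median centring 75.2%, 67.0% and 52.2%, and with the liver channel alone 69.4%, 62.4% and 60.5%.

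Directions turned only in members that did not pass. Gstp1 at 5 g/kg was −0.196 in the liver channel alone and ran from −0.0343 to 0.462 with 1 array left out. Gsta2 at 7 g/kg was −0.00628 without background correction, −0.0592 with the processed signals and with the series table, −0.247 with slide as a block with or without outlier-marked spots, and ran from −0.238 to 0.149 with 1 array left out (−0.0252 without control array 1). Between the doses Gsta3 was −0.0449 with the processed signals and the series table, −0.0336 in the liver channel alone, −0.0703 with probes averaged, −0.0699 with slide as a block and −0.0437 with outlier-marked spots kept as well. In the liver channel alone Gsta4 was −0.187 and Gstt1 −0.124. With 1 array left out, Gsta2 ran from −0.0135 to 0.378, Gsta3 from −0.0366 to 0.138 and Gsta4 from −0.00861 to 0.0776. With the replicate number as a block 934, 2317 and 289 genes and 4, 6 and 2 members passed, and 3 of 9 arrays correlated best with an array of their own number. Gstt3 could not be tested without 5 g/kg array 2 or 3 or 7 g/kg array 2 or 3, which leave a group with 1 value. The slide block with outlier-marked spots kept, and the fit with each probe as its own row, were chosen after seeing the data.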

Other observations

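Of 8 tested genes with higher expression in male than in female liver, 1 passed as higher and 1 as lower at 5 g/kg. At 7 g/kg 3 passed as higher, and 4 were higher at 7 than at 5 g/kg. Median log2 changes were −0.24 at 5 g/kg and 0.56 at 7 g/kg. Of all genes, 2.21% were higher and 1.56% lower at 5 g/kg, 4.66% higher at 7 g/kg and 0.662% higher between the doses. Cyp7b1, an oxysterol hydroxylase gene, rose by 0.96 at 7 g/kg (adjusted p = 0.00153) and had −0.39 at 5 g/kg. Hsd3b5 fell by 1.90 on the log2 scale at 5 g/kg (adjusted p = 0.00426) and had −0.62 at 7 g/kg. C6 rose by 0.58 at 7 g/kg (adjusted p = 0.00384) and had 0.09 at 5 g/kg.

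Of the further CAR and PXR targets named, Cyp2b13 rose by 4.75 at 5 g/kg and by 3.99 at 7 g/kg, and Cyp2c29 rose by 1.504 and 1.547 (2 control arrays). These cytochrome P450 genes encode enzymes of drug and steroid oxidation.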
